A study of Mus musculus with 9 samples.

Results

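The mRNAs of the cytosolic ribosomal proteins were compared between 4 Atf4 null and 5 wildtype mouse lens libraries at E16.5. The members were the protein-coding genes whose symbol in the mouse annotation begins with Rpl or Rps, leaving out the Rps6k kinases and Rps19bp1, which are not ribosomal proteins. This rule found 94 genes of the 55416 that were counted. Of these, 77 encode the core proteins of the ribosome, 31 of the small (40S) and 46 of the large (60S) subunit, and 17 are paralogs or retrocopies of them. By the study's methods, null embryos were homozygous for the germline Atf4 tm1Tow allele, in which a neomycin cassette takes the place of exons 3 and 4, so that all cells of the embryo would lack the gene. A note among the study's supplementary material instead calls the mutant a lens-conditional knockout, and the methods are followed here. Wildtype embryos were their littermates from crosses of heterozygotes on a mixed C57Bl/6 and 129 background. Each library was made from total RNA of the 2 lenses of 1 embryo. The question put to these data was whether the loss of this transcription factor changed the mRNA supply for the ribosome itself.

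A ribosome holds each of its core proteins in a fixed ratio, and the genes for them are transcribed at high rates in most cells. Their mRNAs usually begin with a 5′ terminal oligopyrimidine (TOP) tract, a C followed by more pyrimidines, through which mTORC1 and the binding protein LARP1 set how fast they are translated and how stable they are. ATF4 is the transcription factor of the integrated stress response and is known to induce genes of amino acid synthesis and transport and of tRNA charging, which feed the same translation machinery. Lens fiber cells make very large amounts of crystallin before they degrade their organelles, and ribosomes are then lost with age.

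The 5 wildtype libraries held 8409779 to 8906996 counts on genes, and the 4 null libraries 7440807 to 8696699. Levels of a gene are given as CPM, its counts scaled to a common library size. The targeted gene, Atf4, checked the labels, with 138 ± 13.8 CPM (SD, n = 5) in the wildtype and 5.79 ± 4.65 CPM (SD, n = 4) in the null libraries. Of 6 lens fiber markers, 5 were measured in all libraries and Lim2 was listed at 0 in every one. Wildtype replicate 5 stood apart. A list of 7 mesenchyme genes took 1.45% of its counts, against 0.0228% to 0.0248% in the other 4 wildtype and 0.0188% to 0.0576% in the null libraries, and 7 skeletal muscle genes took 0.435%, against at most 0.0017% in the other wildtype and 0.00434% in the null libraries. Counts and values without it are given beside those it changes.

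Windows near annotated starts are shown with their longest pyrimidine runs. They belong to 4 of the 5 members called and to Rps6, Rpl5, Rps27 and Rps27l. A TOP tract opens at the first base of the mRNA. These runs may lie anywhere in the bases searched, so a run need not be a TOP tract. In the 100 bases around the annotated start, the longest unbroken run of C and T that opens with a C had at least 8 bases in 45 of the 85 members that passed the filter on low counts (52.9%) and in 3682 of the other 12766 protein-coding genes tested (28.8%). The median run was 8 bases in the members and 6 in the other genes. Rpl17, the fifth member called, had a run of 7 and is not shown. Each window below has 30 bases of GRCm39 on the strand of the gene, 5′ to 3′, with the run in capitals. It was placed by the run and need not hold the start.
Rps24, chr14:24540736-24540765, plus strand: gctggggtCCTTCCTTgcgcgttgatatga
Rpl8, chr15:76788276-76788305, plus strand: gtctatttCCTCTTTCggccttgcttgccg
Rps3a1, chr3:86050038-86050067, minus strand: ctgcgcgaCCTCCCgacacacgagggcgct
Rpl18, chr7:45367390-45367419, plus strand: tggtagagCTCCgcgtcgcgctcatgtgac
Rps6, chr4:86775662-86775691, minus strand: aagtaacgCCCCTCTaaagtcacttccgcc
Rpl5, chr5:108048366-108048395, plus strand: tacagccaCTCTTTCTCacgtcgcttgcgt
Rps27, chr3:90120936-90120965, minus strand: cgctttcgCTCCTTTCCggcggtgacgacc
Rps27l, chr9:66853338-66853367, plus strand: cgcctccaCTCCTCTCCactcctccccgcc
Rps24 and Rpl8 had runs of 8 bases that began at bases 19 and 14 of the annotated canonical transcript, while the longest runs of Rps3a1 and Rpl18, with 6 and 4 bases, lay upstream of it at -50 and -47. Rps27 and its paralog Rps27l had runs of 9 bases that differed in sequence and began at bases 21 and 7. The run of Rpl5, with 9 bases, began at base 8, and that of Rps6, with 7, upstream at -15. None of the runs shown began at the first base of the transcript. The ATF4 response element TGATGNAA, searched on both strands from 250 bases before to 50 after the start, was found at 2 of the 85 members (2.35%), Rps23 and the retrocopy Rpl9-ps6, and at 302 of the other 12766 genes (2.37%). These matches describe letters in a window and not binding.

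The members took 2.19%, 2.34%, 2.27% and 2.29% of the gene counts in null replicates 1 to 4. In wildtype replicates 1 to 5 they took 2.33%, 2.40%, 2.40%, 2.52% and 2.21%. The groups thus overlapped through wildtype replicate 5 and, by a narrow margin, wildtype replicate 1, and the mean share differed by -0.06 on the log2 scale, within the spread of the wildtype libraries (SD 0.07). The crystallin genes took 6.60%, 9.30%, 9.01% and 12.6% of the counts in null replicates 1 to 4, against 13.4% to 14.0% in wildtype replicates 1 to 4 and 8.59% in wildtype replicate 5. As a share of protein-coding counts without the crystallins, the members differed by -0.12 on the log2 scale, against a wildtype SD of 0.11. Wildtype replicate 5, at 2.80%, lay among the null libraries at 2.69% to 3.11%, and wildtype replicates 1 to 4, at 3.15% to 3.43%, all lay above them. In bulk lens RNA, a smaller number of cells rich in a transcript and less of it per cell cannot be told apart.

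**Figure D1:**
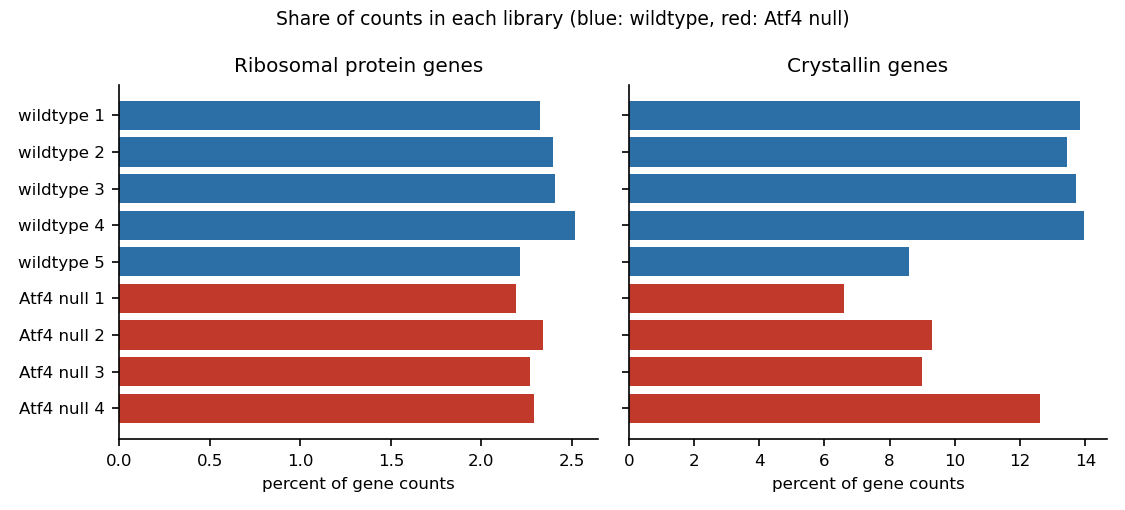
Share of gene counts on the 94 ribosomal protein genes (left) and on the crystallin genes (right), in percent, with 1 bar for each library, blue for wildtype and red for Atf4 null. The ribosomal protein share lies between 2.19% and 2.52% in all 9 libraries, while the crystallin share runs from 6.60% in null replicate 1 to 14.0% in wildtype replicate 4.

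Levels within the ribosome were compared as FPKM, which divides CPM by the summed length of all annotated exons of a gene. In wildtype lenses the median core mRNA stood at 83.0 FPKM, and 73 of the 77 lay between 10 and 500. By this measure the highest was Rplp1, an acidic protein of the stalk that recruits translation factors, at 883 ± 28.8 FPKM (SD, n = 5). Next came Rpl8 (457 ± 42.3), the stalk base protein Rplp0 (452 ± 36.7), the laminin receptor Rpsa (379 ± 50.7) and Rpl4 (295 ± 30.1). In FPKM, Rpl8 and Rplp0 did not differ beyond their spread, nor did Rplp0 and Rpsa, whose ranges of 407 to 509 and 305 to 432 overlapped. In null lenses Rpl8, at 336 ± 18.7 FPKM (SD, n = 4), lay below Rplp0, at 397 ± 43.2, and close to Rpsa, at 335 ± 53.3. The order of these genes rests on the length used. The summed exons of Rplp1, Rpl8, Rplp0 and Rpsa hold 587, 1452, 2969 and 4535 bases, and their canonical transcripts 547, 1051, 1365 and 1938. In CPM, which leaves length out, the null means of Rpl8, Rplp0 and Rpsa were 487, 1179 and 1518.

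At the low end, 3 core mRNAs were counted under 5 FPKM in wildtype, Rpl24 at 0.561 ± 0.360 FPKM, Rps10 at 1.14 ± 0.234 and Rpl13a at 3.56 ± 0.885 (SD, n = 5). These values are uncertain, since reads that align at more than 1 place or lie over more than 1 gene were not counted. For Rpl24, 84.9% of the 64-base windows of its mRNA occur elsewhere in GRCm39, and 56.0% of its exonic bases also lie in another annotated gene, Zbtb11os1 or Gm28037. Rps10 shares 52.2% of its windows and 23.8% of its exonic bases, and Rpl13a 15.2% and 34.0%. The windows of Rpl13a are thus shared less than those of the median core gene. On the same strand the shared exonic bases were 41.1% for Rpl24, 14.9% for Rps10 and 33.0% for Rpl13a. Rpl24 held 32 counts over all 9 libraries and was the single core gene removed by the filter on low counts.

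The median core gene shared 40.8% of its windows with other places in the genome, and 28 shared at least 50%. The genotype difference was much alike at low and high shares. The median log2 fold change was -0.23 over the 21 core genes that share under 25% of their windows, -0.22 over the 36 between 25% and 60%, and -0.26 over the 19 at 60% or more. The 317 pseudogenes named after a member held 0.0477% to 0.0555% of the counts per library, a small amount beside the members themselves.

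**Figure D2:**
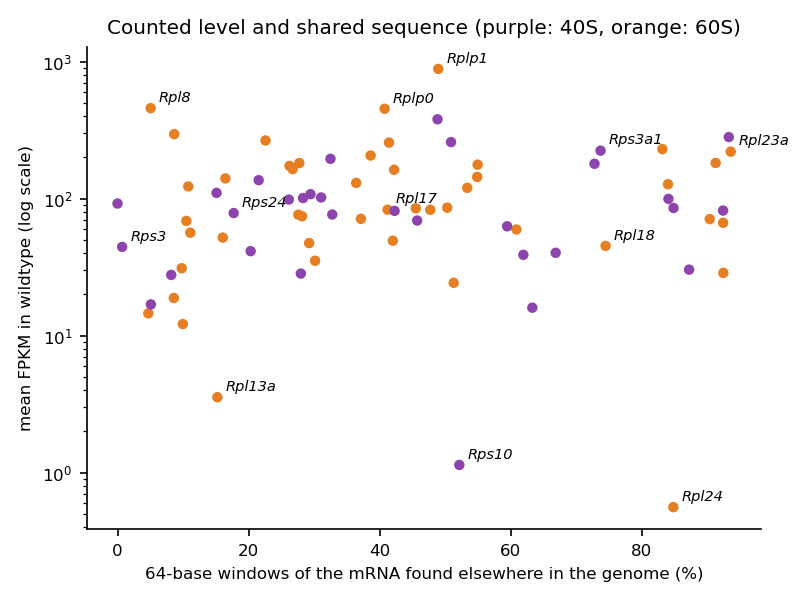
Mean FPKM of the 77 core genes in wildtype lenses (log scale) against the percent of 64-base windows of each mRNA that occur elsewhere in the genome, purple for the small and orange for the large subunit. Rpl24, Rps10 and Rpl13a lie under 5 FPKM, apart from the other core genes, and genes with many shared windows are found at all other levels.

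Ribosomal protein mRNAs leaned toward lower values in Atf4 null lenses, by a small amount each. Of the 85 members tested, 75 had a log2 fold change below 0 (88.2%), against 49.9% of all 14903 genes tested. Their median was -0.23 on the log2 scale, a level 14.6% lower than wildtype, where the median of all genes was 0.00. The test was edgeR's quasi-likelihood test, with P-values adjusted by Benjamini-Hochberg over all genes tested and a threshold of 0.05. It called 5 members, or 5.88%, close to the 5.9% of all genes. All 5 were lower in the null lenses, Rps24, Rps3a1, Rpl8, Rpl18 and Rpl17, where 3.67% of all genes were called lower.

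No member was called higher by edgeR's quasi-likelihood test, where 2.23% of all genes were, by DESeq2, where 3.77% were, or by edgeR's exactTest, where 2.73% were, and 2 were higher at an unadjusted p below 0.05 (2.35%), Rps6 and Rps27l, against 9.31% of all genes. Below that unadjusted threshold, 31 members were lower (36.5%), against 10.2% of all genes. DESeq2 called 10 members (11.8%, all genes 9.37%), exactTest 2 (2.35%, all genes 7.11%), and the quasi-likelihood test with library size alone 3 (3.53%, all genes 8.25%). The standard errors were small, with a median of 0.13 for the core genes against 0.27 over all genes. Among genes with a mean of at least 100 CPM, 55 of 63 members were below 0 (87.3%) against 50.4% of 1791 genes, and 5 were called (7.94%) against 12.9%. With wildtype replicate 5 left out, 55 of 63 were below 0 (87.3%) against 52.2% of 1792, and 14 were called (22.2%) against 19.1%. Both sets of abundant genes include the members, and the differences between these shares were not tested.

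**Figure D3:**
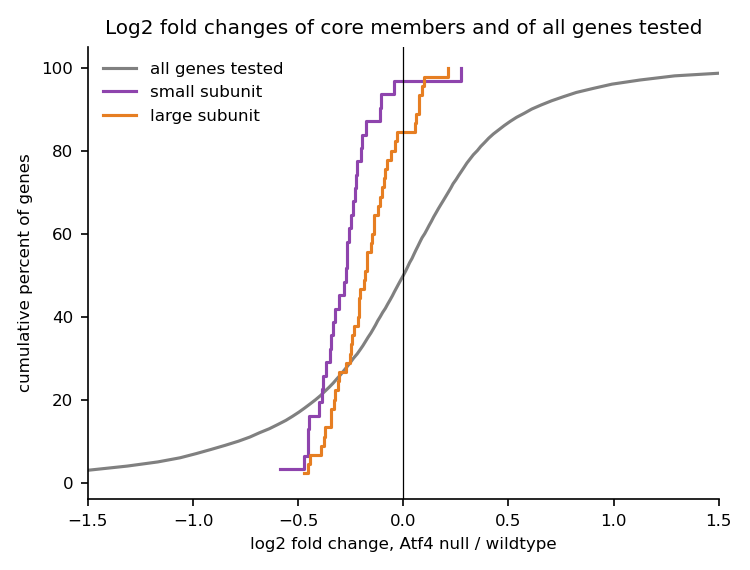
Cumulative percent of genes (vertical axis) with a log2 fold change, Atf4 null over wildtype, up to the value on the horizontal axis, for all 14903 genes tested (grey) and for the core genes of the small (purple) and large (orange) subunit. Both subunit curves are steep and lie left of 0 for most of their length, between -0.59 and 0.28, inside the wide grey curve.

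The libraries did not contribute evenly to this lean. Relative to the wildtype mean of each gene, the median deviation of the 76 core genes tested was -0.39, -0.20, -0.25 and -0.08 on the log2 scale in null replicates 1 to 4. It was 0.03, 0.05, 0.05 and 0.11 in wildtype replicates 1 to 4 and -0.22 in wildtype replicate 5. Null replicate 1 was the lowest of all 9 libraries for 49 core genes, null replicate 4 was the highest null library for 50, and wildtype replicate 5 was the lowest wildtype library for 66. Within the null group, the order of these medians was the order of the crystallin shares, and wildtype replicate 5 was the lowest wildtype library in both. The part of cell composition in the difference was not tested.

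Without wildtype replicate 5, 16 of 84 members were called, all lower, where 8.33% of all genes were called. The libraries of the groups did not overlap in 12 of 85 members (14.1%), all lower in null, against 5.58% of all genes, and with wildtype replicate 5 set aside in 36 (42.4%), against 8.64%. The median over the members was then -0.27. Scaling by library size alone moved the median of all genes to 0.12 and that of the members to -0.10, a shift that such scaling gives to all genes nearly alike.

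Among the small subunit proteins, 30 of 31 mRNAs were below 0, with a median log2 fold change of -0.27, and 2 passed the test (6.45%, all genes 5.9%). Without wildtype replicate 5, 8 passed, where 8.33% of all genes did. Scaled by library size alone, 28 of the 31 were below 0. Of the 14 proteins of the head, which holds the anticodon ends of the tRNAs and the entry of the mRNA, all were between -0.45 and -0.11, with a median of -0.27, and 0 passed the test by edgeR, 7 having an unadjusted p below 0.05, where 10.2% of all genes were that low, and 2 passing by DESeq2, where 9.37% of all genes passed. Rps3, Rps20 and Rps29 passed by edgeR without wildtype replicate 5, which makes 3. Of the 17 proteins of the body and platform, 16 were below 0, with a median of -0.28, and Rps24 and Rps3a1 passed (11.8%, all genes 5.9%), or 5 without wildtype replicate 5.

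Rps24, a protein of the 40S body that is mutated in some patients with Diamond-Blackfan anaemia, fell furthest among the core genes. Its gene lies at chr14:24537193-24547028 on the plus strand, and the window shown above lies within it. It was at 335, 334, 331 and 313 CPM in null replicates 1 to 4 and at 504, 484, 525, 521 and 434 CPM in wildtype replicates 1 to 5. The null libraries were tightly grouped and all lay below the lowest wildtype library, replicate 5. The log2 fold change was -0.59 ± 0.10 (SE), so that the level fell by 33.5%, with an adjusted p of 0.00476 by edgeR, and Rps24 passed in all 19 alternative fits. Its windows are mostly its own, with 17.7% found elsewhere.

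Rps3a1, which sits at the exit of the mRNA channel near the bound initiation factor eIF3, was at 179, 207, 182 and 175 CPM in the null libraries. The wildtype libraries had 247, 254, 275, 277 and 236 CPM, so that the groups did not overlap. It fell by 0.47 ± 0.10 (SE) on the log2 scale (edgeR, adjusted p = 0.0171). The gene lies at chr3:86045244-86050009 on the minus strand, and 73.7% of its windows occur elsewhere, so its counts may rest on the remaining part of the mRNA. It missed the threshold without null replicate 3, at an adjusted p of 0.0569 by edgeR, and with library size alone, at 0.0637.

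The other small subunit mRNAs whose libraries did not overlap were Rps4x, Rps9, Rps27, Rps20 and Rps19, of which Rps9 and Rps20 were picked for naming after their values were seen. Rps20 of the head was at 115, 150, 172 and 147 CPM in null and 219, 186, 225, 195 and 175 CPM in wildtype libraries, and the highest null library lay just under the lowest wildtype one. Its log2 fold change of -0.45 ± 0.13 (SE) had an adjusted p of 0.0661 by edgeR, and -0.49 with 0.0310 without wildtype replicate 5. Rps19, the gene most often mutated in Diamond-Blackfan anaemia, was at 151, 167, 156 and 169 CPM in null and 180, 202, 179, 229 and 179 CPM in wildtype, a log2 fold change of -0.27 ± 0.11 (SE, edgeR adjusted p = 0.193).

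Rps6 was the one core mRNA of the small subunit above 0. It encodes the 40S protein that the S6 kinases phosphorylate downstream of mTORC1. Its levels were 524, 655, 662 and 754 CPM in null replicates 1 to 4 and 522, 554, 529, 600 and 473 CPM in wildtype replicates 1 to 5. Null replicate 1 lay among the wildtype libraries while the other null libraries lay above them all. The log2 fold change was 0.28 ± 0.12 (SE), with an adjusted p of 0.239 by edgeR. With library size alone it was 0.39 with an adjusted p of 0.0186, the one call of a member as higher. Of its windows 92.4% occur elsewhere, so its counts may rest on a small part of the canonical mRNA. Where its reads fell was not examined.

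**Figure D4:**
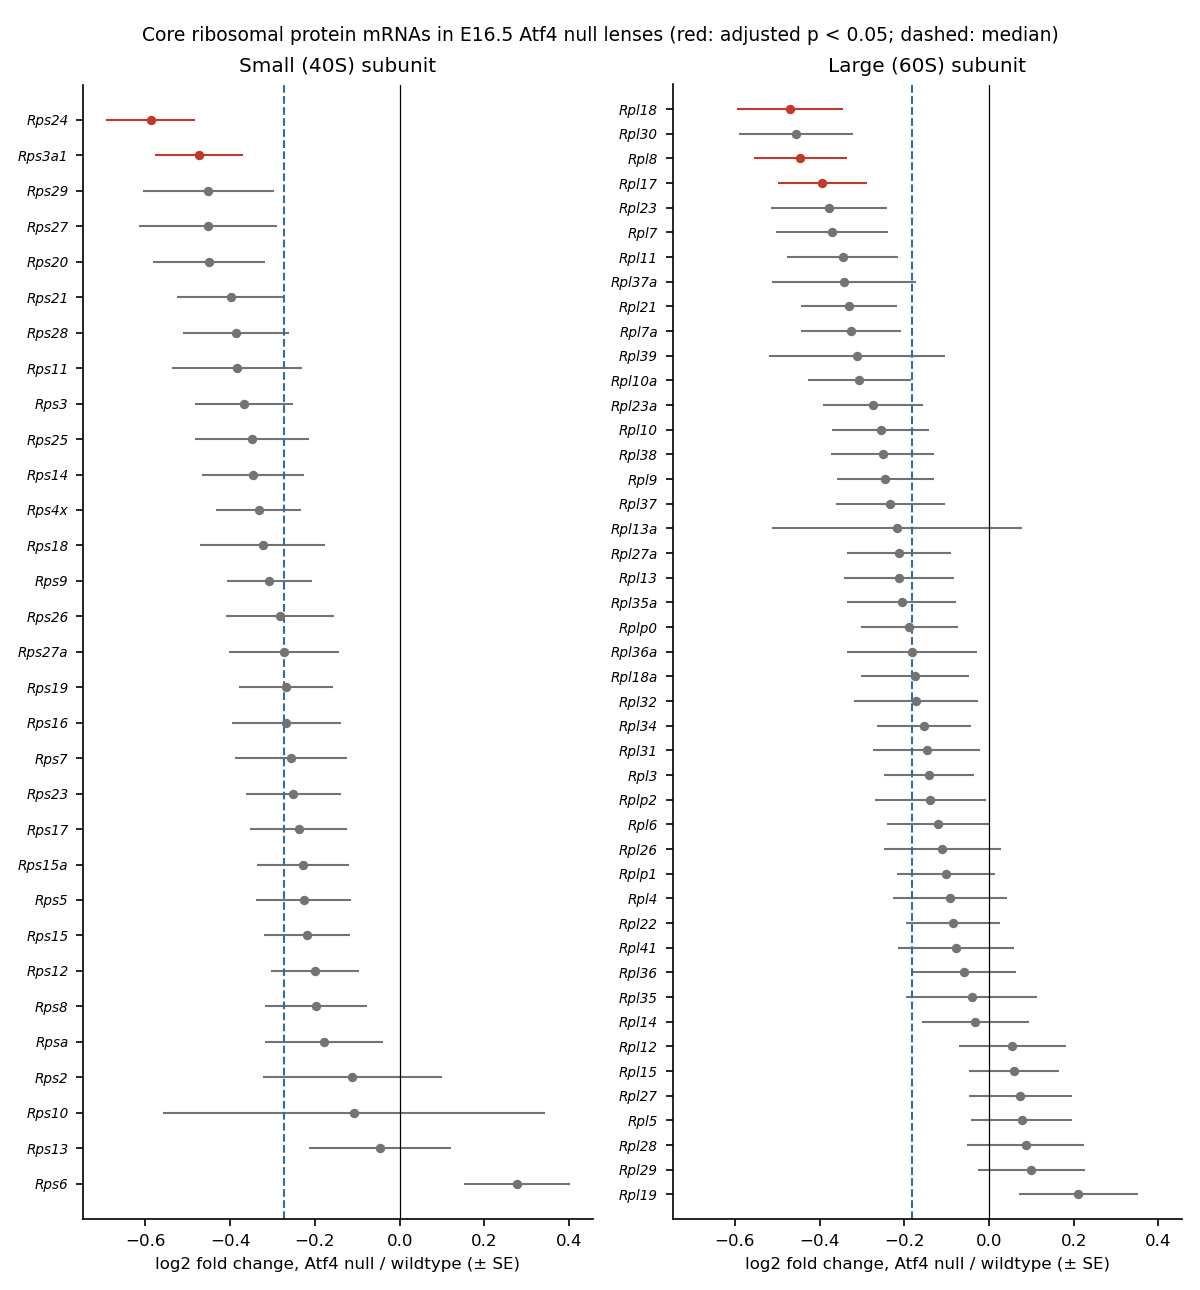
Log2 fold change, Atf4 null over wildtype, with its standard error for the 76 core genes tested, sorted within the small (left) and large (right) subunit, with red points for an adjusted p below 0.05 and a dashed line at the median of the subunit. Of the small subunit genes 30 of 31 lie below 0 and of the large subunit genes 38 of 45, and the lowest point is Rps24 at -0.59.

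Among the large subunit proteins, 38 of 45 mRNAs tested were below 0, with a median log2 fold change of -0.18, and Rpl8, Rpl18 and Rpl17 passed the test (6.67%, all genes 5.9%). Without wildtype replicate 5, 8 passed, where 8.33% of all genes did. With library size alone, 31 of 45 were below 0. The values thus reached closer to 0 than in the small subunit; whether the subunits differ was not tested. Rpl8, which lies near the peptidyl transferase centre, was at 462, 477, 485 and 526 CPM in null and at 700, 690, 686, 685 and 554 CPM in wildtype libraries. Wildtype replicates 1 to 4 agreed closely, and replicate 5 lay between them and the null libraries. It fell by 0.45 ± 0.11 (SE) on the log2 scale (edgeR, adjusted p = 0.0302). Without wildtype replicate 5 the adjusted p was 0.00527. The gene lies at chr15:76788271-76790514 on the plus strand, no other annotated exon overlaps it, and 5.06% of its windows occur elsewhere.

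Rpl18 was at 120, 163, 157 and 132 CPM in null and 217, 198, 189, 217 and 169 CPM in wildtype libraries, with no overlap by a narrow margin. The log2 fold change was -0.47 ± 0.13 (SE, edgeR adjusted p = 0.0435). Its gene lies at chr7:45364823-45370260 on the plus strand, and 74.5% of its windows occur elsewhere. It shares 52.4% of its exonic bases with Sphk2, all of them on the other strand, and the strand setting of the counting is not given. Its value is therefore uncertain. Rpl17, a protein at the rim of the tunnel through which the nascent chain leaves, was at 161, 192, 172 and 176 CPM in null and 236, 230, 214, 258 and 213 CPM in wildtype libraries. The groups did not overlap, and it fell by 0.39 ± 0.11 (SE) on the log2 scale (edgeR, adjusted p = 0.0440). Rpl18 passed in 9 and Rpl17 in 6 of 19 alternative fits, Rpl8 in 11 and Rps3a1 in 17.

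**Figure D5:**
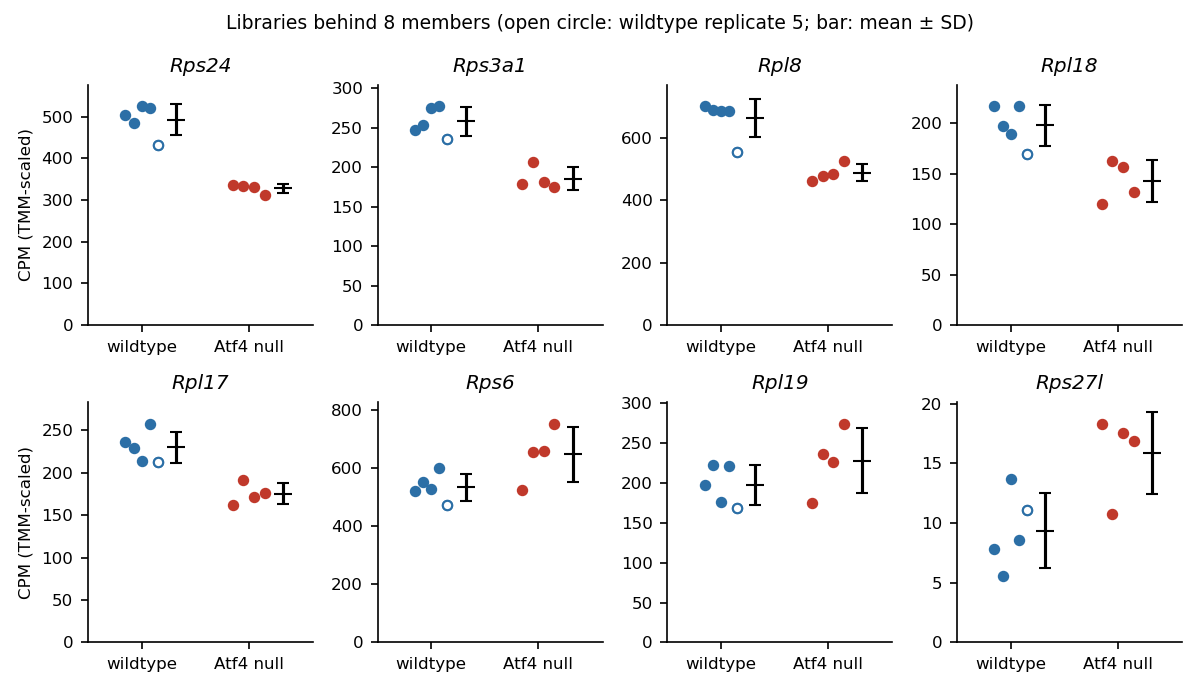
TMM-scaled CPM in each library for the 5 members called and for Rps6, Rpl19 and Rps27l, blue for wildtype and red for Atf4 null, with the mean ± SD beside each group and an open circle for wildtype replicate 5. The groups do not overlap for Rps24, Rps3a1, Rpl8, Rpl18 and Rpl17 and overlap for the other 3 genes.

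In the stalk, Rplp0, Rplp1, Rplp2 and the neighbouring Rpl12 had a median log2 fold change of -0.12. By edgeR 0 of 4 passed, where 5.9% of all genes did, and 0 had an unadjusted p below 0.05, where 19.6% did. By DESeq2 (all genes 9.37%) and exactTest (all genes 7.11%) 0 passed. Counts of 0 among 4 genes do not set the stalk apart from all genes. Rplp0 was at 1030, 1206, 1143 and 1337 CPM in null and 1312, 1339, 1345, 1511 and 1208 CPM in wildtype libraries, and the ranges overlapped. Rplp1 had a log2 fold change of -0.10 ± 0.11 (SE) and Rplp2 of -0.14 ± 0.13, or -0.08 and -0.21 without wildtype replicate 5.

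The 2 proteins of the 5S particle, which bind and inhibit MDM2 when ribosome assembly is disturbed, lay on opposite sides of 0. Rpl5 was at 929, 959, 1034 and 1218 CPM in null and 997, 1011, 960, 1091 and 847 CPM in wildtype libraries, with overlapping ranges and a log2 fold change of 0.08 ± 0.12 (SE, edgeR adjusted p = 0.802). Rpl11 was at 169, 213, 192 and 210 CPM in null and at 256, 272, 271, 260 and 187 CPM in wildtype libraries. Its null libraries all lay below wildtype replicates 1 to 4, and wildtype replicate 5 lay among them. The log2 fold change of Rpl11 was -0.35 ± 0.13 (SE) with an adjusted p of 0.154 by edgeR, and -0.43 with 0.0256 without wildtype replicate 5. Rpl23, another MDM2 binder, had -0.38 ± 0.14 (SE, edgeR adjusted p = 0.133), and -0.45 with 0.0363 without that library.

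Of the 9 proteins of the exit tunnel and its rim, 8 were below 0 with a median of -0.11, and with library size alone 5 were. Rpl19 had the highest log2 fold change of the large subunit's core genes and was at 175, 237, 227 and 274 CPM in null and 197, 222, 176, 221 and 168 CPM in wildtype libraries. Its ranges overlapped and that log2 fold change was 0.21 ± 0.14 (SE, edgeR adjusted p = 0.465). With 1 library left out it ran from 0.11, without null replicate 4, to 0.32, without null replicate 1. Rpl4, whose loop lines the tunnel, had -0.09 ± 0.13 (SE). Over the other 30 large subunit proteins tested, 26 were below 0, with a median of -0.21, and 2 passed (6.67%, all genes 5.9%), or 6 without wildtype replicate 5, where 8.33% of all genes passed. Rpl30, named here after its value was seen, was at 71.5, 96.2, 83.7 and 91.1 CPM in null and 121, 124, 128, 124 and 89.5 CPM in wildtype libraries, and only wildtype replicate 5 lay in the null range. Its log2 fold change was -0.45 ± 0.13 (SE, edgeR adjusted p = 0.0664), and -0.53 with 0.0118 without that library. The Diamond-Blackfan gene Rpl35a had -0.21 ± 0.13 (SE, edgeR adjusted p = 0.428), and Rps14, which is lost in the 5q deletion of myelodysplastic syndrome, -0.35 ± 0.12 (0.122).

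Of the 17 paralogs and retrocopies, 9 were tested, 4 had no count in any library (Rpl10l, Rpl39l, Rplp1rt and Rplp2-ps1), and 4 more had too few counts for the test. None of the 9 passed by edgeR (all genes 5.9%), DESeq2 (9.37%) or exactTest (7.11%), and 3 had an unadjusted p below 0.05 (33.3%), against 19.6% of all genes. Rpl3l, the form of Rpl3 found in heart and skeletal muscle, had 1 count over all 9 libraries, in a null one, although wildtype replicate 5 carried muscle transcripts. Rps27l, a paralog of Rps27 and a known p53 target, was at 18.3, 10.8, 17.5 and 16.9 CPM in null and 7.83, 5.55, 13.7, 8.61 and 11.1 CPM in wildtype libraries. Null replicates 1, 3 and 4 lay above every wildtype library, and null replicate 2 lay inside their range. The log2 fold change of Rps27l was 0.76 ± 0.29 (SE, edgeR adjusted p = 0.158) and that of Rps27 was -0.45 ± 0.16 (0.132).

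Rps4l, a paralog of the X-linked Rps4x, was at 13.3, 19.2, 18.9 and 18.3 CPM in null and 35.8, 27.6, 23.1, 25.6 and 21.3 CPM in wildtype libraries. Its groups did not overlap, with a log2 fold change of -0.62 ± 0.21 (SE) and an adjusted p of 0.114 by edgeR. Rps4x itself was at 234, 255, 259 and 233 CPM in null and 301, 306, 320, 333 and 284 CPM in wildtype libraries. It too did not overlap, with a log2 fold change of -0.33 ± 0.10 (SE, edgeR adjusted p = 0.0758), and it passed without wildtype replicate 5, at 0.0438, and by DESeq2, at 0.0143. Rps18-ps6, at 2.04 to 4.88 CPM in null and 6.66 to 8.46 CPM in wildtype libraries, had the lowest log2 fold change of all members, -0.98 ± 0.37 (SE, edgeR adjusted p = 0.150). Rps23rg1 had the highest, 1.01 ± 1.25, at no more than 1.23 CPM in any library.

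Rpl22l1, the paralog that can stand in for Rpl22, was at 13.1, 13.1, 10.6 and 19.2 CPM in null and 14.6, 29.1, 14.2, 15.8 and 13.9 CPM in wildtype libraries. The groups overlapped and the value of wildtype replicate 2 was near double that of the next. Rpl22 had a log2 fold change of -0.08 ± 0.11 and Rpl22l1 of -0.33 ± 0.28 (SE), which was -0.07 without wildtype replicate 2. Of the remaining paralogs with a rule of their own, Rpl7l1 had -0.06 ± 0.16, the Rps27 retrocopy Rps27rt -0.13 ± 0.36, and Rpl36al was too low to test.

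The rule on symbols also misses ribosomal proteins with other names, of which Fau and Rack1 were examined. Fau, which carries the 40S protein eS30 behind a ubiquitin-like domain, was at 162, 197, 191 and 205 CPM in null and 254, 248, 252, 268 and 209 CPM in wildtype libraries. Its libraries did not overlap, by a narrow margin, and its log2 fold change was -0.38 ± 0.11 (SE, edgeR adjusted p = 0.0698), and -0.43 with 0.0239 without wildtype replicate 5. Rack1, the scaffold of the 40S head, had -0.01 ± 0.14 (SE, adjusted p = 0.979).

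Other RNAs known to carry a TOP tract went both ways. Of 20 such genes, mostly for elongation and initiation factors and with the noncoding Gas5 among them, 11 were below 0, over a range of -0.84 to 0.55 with a median of -0.04, and 2 of the 20 passed the test, where 5.9% of all genes did, both lower. Eef1b2, the exchange factor of the elongation factor eEF1A, fell from 395 ± 16 CPM (SD, n = 5) to 300 ± 10.6 (SD, n = 4), with a log2 fold change of -0.40 ± 0.10 (SE, edgeR adjusted p = 0.0284). Ybx1, an mRNA-binding protein, fell from 1252 ± 173 to 700 ± 32.7 CPM, by 0.84 ± 0.13 (SE) on the log2 scale (edgeR, adjusted p = 0.00157). Both had groups that did not overlap. Eef2 had 0.06 ± 0.11 (SE) and Eef1a1 -0.20 ± 0.11.

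A list of 10 chaperones, import factors and assembly factors of ribosomal proteins leaned the other way without passing the test. Nap1l1 among them was also one of the TOP genes. Of the 10, 9 were above 0, where 49.9% of all genes were below 0. Their median was 0.32, or 0.21 without wildtype replicate 5. The lean itself was not tested. By edgeR 0 passed, where 5.9% of all genes did, and 3 had an unadjusted p below 0.05, where 19.6% did. DESeq2 passed 1 of the 10 (all genes 9.37%) and exactTest 0 (all genes 7.11%). Their summed share of counts was 0.238% to 0.316% in null, 0.253% to 0.271% in wildtype replicates 1 to 4 and 0.182% in wildtype replicate 5, most of it from Nap1l1, which had 2449 ± 512 CPM in null (SD, n = 4) and 2318 ± 440 in wildtype lenses (SD, n = 5) and a log2 fold change of 0.08 ± 0.17 (SE). Ltv1, needed for the assembly of the 40S head, was at 57.0 ± 13.5 CPM in null (SD, n = 4) and 39.5 ± 4.21 in wildtype lenses (SD, n = 5). Its groups did not overlap (log2 fold change 0.53 ± 0.17 SE, edgeR adjusted p = 0.0871), which held for 4.65% of all genes in that direction. Pdcd2l, a relative of the Rps2 chaperone Pdcd2, had 0.95 ± 0.30 (SE, edgeR adjusted p = 0.0830) with overlapping groups. Rrs1, an assembly factor of the 5S particle, had 0.67 ± 0.25 (SE, edgeR adjusted p = 0.140).

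Markers of cell types also differed between the genotypes. Of 5 lens epithelium markers all were below 0 and 3 passed the test, Cdh1, Foxe3 and Gja1, with a summed share of 0.0564% to 0.0916% of counts in null, 0.107% to 0.125% in wildtype replicates 1 to 4 and 0.0905% in wildtype replicate 5. Of 6 retina markers all were above 0 and Pou4f2 passed, with a summed share of 0.00496% to 0.0392% in null, 0.00455% to 0.00731% in wildtype replicates 1 to 4 and 0.0112% in wildtype replicate 5, so that the ranges overlapped. Of 5 fiber markers tested, all were below 0 and Bfsp1 passed. Of 5 erythroid markers tested, all were below 0, with a median of -1.03, and Hba-a1 passed, while 5 had an unadjusted p below 0.05 and 4 passed by DESeq2 and 3 by exactTest, with a summed share of 0.0206% to 0.0257% in null, 0.0207% to 0.0692% in wildtype replicates 1 to 4 and 0.0494% in wildtype replicate 5. All 4 vascular endothelium markers were below 0, with a median of -0.48, and 0 passed by edgeR, 2 having an unadjusted p below 0.05 and 1 passing by DESeq2. Of 4 macrophage and 4 pigment cell markers, 0 passed by edgeR, by DESeq2 or by exactTest, and 0 had an unadjusted p below 0.05. Without wildtype replicate 5, 6 mesenchyme markers were tested and 5 were called higher in null, Col1a1, Col1a2, Col3a1, Dcn and Lum, and Pdgfra lower, with a median of 2.69, whereas with that library the median was -2.49 and 1 passed, Pdgfra. Without that library 2 retina and 2 pigment cell markers were also called higher, and 2 erythroid markers lower. The part of these shifts in the ribosomal protein values was not tested.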

How the data were processed

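The authors cut adapters and poor bases with Trim Galore, used HISAT2 to find and discard reads of the RN45S ribosomal RNA, mapped what was left to GRCm39 and made a count for each gene with HTSeq. Tool versions and the strand setting are not given in the sources used here. The counts were made on an Ensembl annotation of GRCm39 of another release than the one used here for lengths and overlaps, which may differ from those of the counting. The deposited values are raw counts per gene, without normalization, in 1 file per library. Their 5 summary entries, left out here, held 44.6% to 47.7% of the reads. The libraries came from a stranded kit for small amounts of total RNA. For the 5 wildtype samples, title and count file name different wildtype libraries, so their replicate numbers are uncertain and their genotype is not.

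Symbols, exon lengths and starts came from GENCODE vM39, which gave a symbol to 54749 of the 55416 genes. Counts were tested with edgeR 4.0.16 in R 4.3.3 (filterByExpr, TMM factors, quasi-likelihood test by genotype, no covariate), with Benjamini-Hochberg adjustment over 14903 genes and a threshold of 0.05. CPM are TMM-scaled. The standard error of a log2 fold change is its size over the square root of the F statistic. A window of 64 bases of an mRNA counted as found elsewhere where it occurs at another place of the genome. Alternatives were DESeq2 1.42.0, edgeR's exactTest, library size alone, TMM factors without crystallins or without members, a robust fit, no filter, a filter of 10 counts in each library, the replicate number as a block, pseudogene counts added to members, and each library left out in turn. The members, the lists and the rule for named genes were chosen with earlier results of these data known. That rule took the members called, the 5 highest and 5 lowest, the paralogs with their partners, the 5 highest by FPKM, the P stalk, MDM2 binders, Diamond-Blackfan genes, and Fau and Rack1. Some genes first placed on the lists are not reported here, for reasons unrelated to their values; the lists of TOP genes and chaperones are whole. The comparison with genes of at least 100 CPM, with and without wildtype replicate 5, and the counts of libraries that do not overlap without wildtype replicate 5 were added after seeing the data.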

Additional observations from a re-analysis of the deposited data

Results flagged for a closer look

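Within groups of 4 or 5 libraries, 8 of 74 gene and group combinations had 1 library far from the rest by Dixon's test at the 95% level, which chance alone flags in about 1 of 20. Of these, 5 were low values of wildtype replicate 5. It had 554 CPM of Rpl8 where the other wildtype libraries had 685 to 700, 454 CPM of Rpl29 where they had 541 to 567, 710 CPM of Rpl4 where they had 868 to 922, 187 CPM of Rpl11 where they had 256 to 272, and 402 CPM of Rplp2 where they had 544 to 563. Wildtype replicate 2 had 29.1 CPM of Rpl22l1, above the 13.9 to 15.8 of the others. Null replicate 1 had 13.3 CPM of Rps4l, below the 18.3 to 19.2 of the others. Null replicate 4 had 0 CPM of the low-count Rps23rg1, against 1.20 to 1.21.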

How the results depend on the processing

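The median log2 fold change of the members stayed below 0 in all 19 alternatives, from -0.29 without null replicate 4 to -0.10 with library size alone. The number called did not hold its size. DESeq2 called 10, exactTest 2 and library size alone 3, of them 2 lower and 1 higher, Rps6. With 1 library left out, the number ran from 1, without null replicate 3, to 16, without wildtype replicate 5, and was 2 without null replicate 1 or 2 or any of wildtype replicates 1 to 4. The share of all genes called moved as well, from 5.9% to between 3.41% and 8.33%, with 3.64% without null replicate 3. The other alternatives apart from the replicate block gave 4 to 7. The null and wildtype replicate numbers do not pair the samples, with correlations of same-numbered deviations between -0.131 and 0.008; with the number as a block, 8 were called (9.41%, all genes 5.72%) and Rpl17 was lost. Over 36 named genes, 620 of 678 values kept direction and side of the threshold, 33 lost and 10 gained the call.

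Small values that changed sign were, with library size alone, 0.0785 for Rpl7l1, 0.0143 for Rps27rt, 0.0354 for Rpl22, 0.00729 for Rplp1, 0.0220 for Rpl4 and 0.106 for Rack1. With 1 library left out, the log2 fold change ran from -0.00078 to 0.189 for Rpl29, from -0.0136 to 0.130 for Rpl5, from -0.132 to 0.0442 for Rpl7l1, from -0.359 to 0.0485 for Rps27rt, from -0.190 to 0.0106 for Rpl4 and from -0.0943 to 0.0985 for Rack1. The cause was not tested. Reads that align at several places were not counted, so members with many copies may rest on part of their mRNA, and intervals cover the spread between embryos only.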
